A study of Mus musculus with 2 samples.

Results

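The 44 genes described here serve protein folding, quality control and export at the endoplasmic reticulum (ER). They were chosen by name, as chaperones, stress sensors, translocon subunits and oligosaccharyltransferase subunits, and are 44 of the 32285 genes in the deposited expression table. They were followed in single-cell RNA-seq of leukocytes (live CD45+ cells, CD45 being the surface protein that leukocytes share) from the colon lamina propria of 9-month-old female mice. One group was 5XFAD, a transgenic mouse model of familial Alzheimer disease whose transgenes are driven by the neuronal Thy1 promoter, and the other was their wild-type (WT) littermates. Each genotype is represented by 1 library, a pool of 3 mice, and each library holds 3443 cells. No replicate check exists between the genotypes, no test between them was made, and every interval below covers counting error only.

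The libraries held 18604847 (5XFAD) and 17939499 (WT) UMIs, the unique molecular identifiers that count captured RNA molecules, with medians of 5209 and 4938 UMIs per cell. Only WT held cells with 2500 genes or more, 106 of them, and 3 cell barcodes occurred in both libraries. The authors' 17 clusters are used by number. Clusters 0 to 5 are B cell-like (2364 cells in 5XFAD, 2538 in WT), clusters 8, 9 and 10 are regulatory T cell-like, ILC2-like (group 2 innate lymphoid) and T cell-like, cluster 12 is NK or ILC1-like, cluster 16 is ILC3-like and cluster 13 resembles gamma delta T cells. Clusters 6, 7, 11, 14 and 15 have no name here. Clusters 6 and 7 carried the 5 B cell markers at a summed 2760 to 3306 UMIs per 1000000, near those of clusters 0 to 5, and cluster 6 was led by Ighg2b, Jchain and Igha, while cluster 7 was led by Egr1, Egr2, Egr3 and Myc.

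Proteins bound for the cell surface or for secretion enter the ER through the Sec61 channel, receive sugar chains from oligosaccharyltransferase, and fold with the help of chaperones and disulfide isomerases. Chains that fail to fold are pulled back and degraded, and the sensors IRE1 (gene Ern1), PERK (Eif2ak3) and ATF6 switch on the unfolded protein response, whose transcription factors include XBP1 and ATF4. The system is known in the B lineage for its expansion when B cells become antibody-secreting plasma cells, and XBP1 is required for it.

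The promoters show what part of the list shares a response element for that pathway. RefSeq promoters (GRCm38.p6, 250 bases before to 50 after the start) were matched for 37 of the 44 genes. Atf6, Manf, Hyou1, Derl1, Sec61a1, Ssr2 and Mzb1 had none in the table. The ER stress response element, ERSE, was searched on both strands as CCAAT and CCACG with any 9 bases between. It was present in 9 of the 37 matched genes (24.3%) and in 0.137% of the 27025 genes with a promoter. The related ERSE-II, searched as ATTGG and CCACG with any 1 base between, was found in Herpud1 alone of the 37 and in 0.0444% of all genes. The unfolded protein response element core TGACGTG was present in Fkbp11, Hspa5 and Txndc5 (8.11%, against 2.22% of genes), and the ATF4 site TTGCATCA was in Herpud1 (2.70%, against 1.03%). A match describes letters and is not evidence that a factor binds. The genes were chosen by name from the pathway to which these elements belong. The shares beside all genes therefore describe that choice and test nothing. The sites are shown because these genes recur below. Each is written 5′ to 3′ on the strand that reads as the motif, and capitals mark its fixed letters.
Hspa5, chr2:34772025-34772043, + strand: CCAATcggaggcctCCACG
Hsp90b1, chr10:86705533-86705551, + strand: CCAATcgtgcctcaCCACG
Hsp90b1, chr10:86705638-86705656, - strand: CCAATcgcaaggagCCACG
Dnajc3, chr14:118937827-118937845, + strand: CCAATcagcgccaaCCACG
Creld2, chr15:88819520-88819538, - strand: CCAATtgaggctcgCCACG
Pdia6, chr12:17266491-17266509, + strand: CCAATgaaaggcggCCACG
Calr, chr8:84847075-84847093, + strand: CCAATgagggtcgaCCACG
Canx, chr11:50325800-50325818, - strand: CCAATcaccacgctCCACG
Syvn1, chr19:6046532-6046550, + strand: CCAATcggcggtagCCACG
Derl3, chr10:75893242-75893260, - strand: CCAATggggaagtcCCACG
Herpud1 (ERSE-II), chr8:94386377-94386387, + strand: ATTGGgCCACG

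All of these sites lay before the annotated start. The 200 bases before the Herpud1 start hold both an ATF4 site and ERSE-II, in capitals. The same stretch of Ost4, the gene with the highest ratio in the B cell-like clusters, is set beside it and holds none of the 4 motifs.
Herpud1, chr8:94386229-94386428, + strand: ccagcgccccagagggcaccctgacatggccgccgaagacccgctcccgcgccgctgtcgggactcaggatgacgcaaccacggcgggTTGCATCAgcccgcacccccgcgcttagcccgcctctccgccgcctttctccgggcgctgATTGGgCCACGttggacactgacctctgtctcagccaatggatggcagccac
Ost4, chr5:30907789-30907988, - strand: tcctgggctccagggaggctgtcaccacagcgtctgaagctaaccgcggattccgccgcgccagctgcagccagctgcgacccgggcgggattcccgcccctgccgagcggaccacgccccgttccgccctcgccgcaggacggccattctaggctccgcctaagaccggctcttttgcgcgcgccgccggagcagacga

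In the B cell-like clusters 0 to 5, Ost4, Sec61g, Dad1, Xbp1, Manf, Ssr2 and Sdf2l1 were higher in 5XFAD past the fold used here, while the central chaperones Hspa5 and Calr were nearly level between the libraries. UMIs were summed over the cells of each library and divided by all UMIs of the class in that library, per 1000000 (CPM). A gene counted as measured with at least 50 UMIs over both libraries, and as past the fold at a log2 ratio of 5XFAD over WT of at least 0.5 or at most -0.5. Of the 44 genes 42 were measured, 7 were past the fold higher in 5XFAD (16.7%, against 6.95% of all 9681 measured genes) and 0 were past it lower (against 19.8%). The median log2 ratio of the 42 was 0.07 and that of all measured genes was -0.12, with 26 of the 42 above 0 and 16 below. Scaling by the median of ratios instead of the class total adds 0.12 to every ratio in this class. The 2 genes below 50 UMIs were Derl3, with 15 UMIs in 5XFAD and 17 in WT, and Fkbp11, with 25 and 16. Over all 44 genes the summed level was 6969 CPM in 5XFAD and 6135 in WT, a log2 ratio of 0.18 (95% interval 0.17 to 0.20). Taken singly, the clusters ran from 0.03 in cluster 1 to 0.42 in cluster 5. The libraries held unlike amounts of cluster 5, 590376 UMIs in 5XFAD and 1820588 in WT. The part of this in the summed ratio was not tested.

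**Figure D1:**
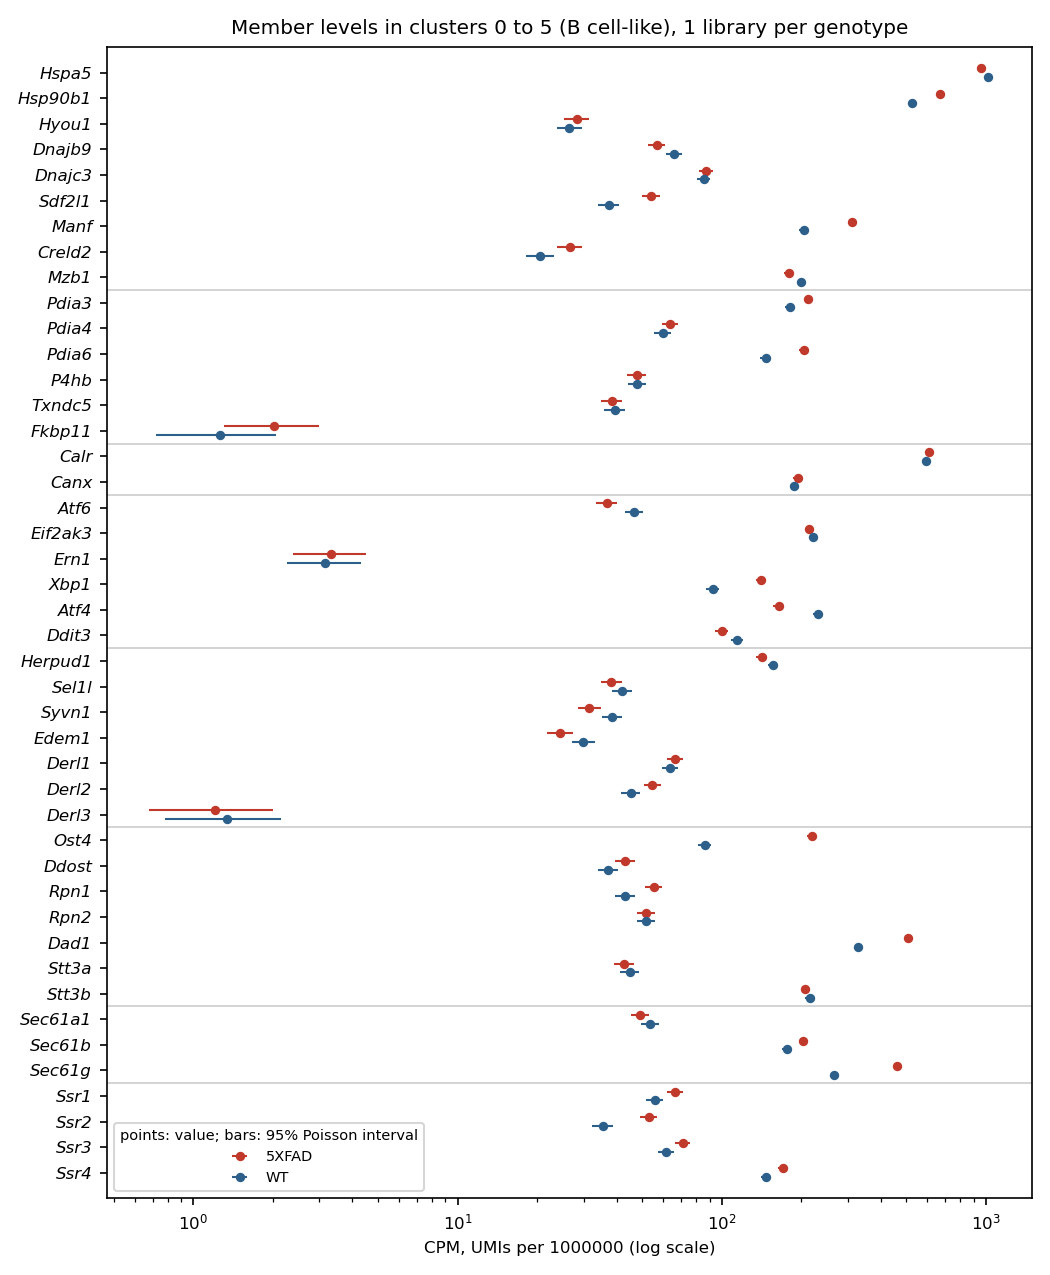
Level of each of the 44 genes in clusters 0 to 5, in CPM on a log axis, with 1 point per library (red 5XFAD, blue WT), 95% Poisson bars and grey lines between roles. Among the genes with at least 50 UMIs, Ost4, Sec61g, Dad1, Xbp1 and Manf show the points farthest apart. Fkbp11, Derl3 and Ern1 lie at the bottom of the axis in both libraries.

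Among the 9 chaperones and co-chaperones, 2 were past the fold higher, and the ratios ran from -0.22 to 0.60 with a median of 0.09. Hspa5 encodes BiP, the main ER Hsp70 (chr2:34771970-34777547 in GRCm38, GENCODE M21). Its level was 961 CPM in 5XFAD and 1020 in WT, a log2 ratio of -0.09 (-0.12 to -0.05), which becomes 0.04 under the median of ratios. The ER Hsp90 known as GRP94, encoded by Hsp90b1, stood at 672 and 524, a log2 ratio of 0.36 (0.31 to 0.40). The BiP gene was thus slightly lower and the GRP94 gene higher in the same cells of 5XFAD. Manf, a secreted stress protein that binds BiP, was at 311 CPM in 5XFAD and 205 in WT, a log2 ratio of 0.60 (0.53 to 0.68). Sdf2l1, a partner of ER DnaJ proteins, was at 53.9 and 37.4, a log2 ratio of 0.53 (0.36 to 0.70), and at 0.47 without cluster 5, which ends its place past the fold. Mzb1, a B lineage co-chaperone for immunoglobulin assembly, was at 180 and 200, a log2 ratio of -0.15 (-0.23 to -0.07). The remaining 4, Creld2, Hyou1, Dnajc3 and Dnajb9, had log2 ratios of 0.37, 0.09, 0.03 and -0.22.

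The disulfide isomerases and the lectin chaperones gave no gene past the fold. Pdia6, a disulfide isomerase that also binds BiP, was the nearest to it from below at 205 CPM in 5XFAD and 147 in WT, a log2 ratio of 0.48 (0.39 to 0.57), and passes it at 0.61 under the median of ratios. Pdia3, the isomerase that works with the lectin chaperones, was at 213 and 181, a log2 ratio of 0.23 (0.15 to 0.31). Pdia4, P4hb and Txndc5 lay at 0.10, -0.01 and -0.04, each with an interval that includes 0. Calr, the soluble lectin chaperone calreticulin, was at 609 and 594, a log2 ratio of 0.04 (-0.01 to 0.08), and its membrane-bound partner Canx was at 195 and 189, a log2 ratio of 0.05 (-0.04 to 0.13). Without cluster 5 the Calr ratio is -0.03.

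Of the 3 stress sensors and 3 transcription factors, Xbp1 alone was past the fold. Xbp1 (chr11:5520659-5525893) stood at 141 CPM in 5XFAD and 92.5 in WT, a log2 ratio of 0.61 (0.50 to 0.72). The share of cells with an Xbp1 UMI was 46.8% and 33.1%, and 32.7% and 21.6% once each cell was thinned to 3000 UMIs. These 3′ libraries do not separate the spliced from the unspliced Xbp1 transcript. Atf4, the translationally controlled factor of the PERK branch, went the other way at 164 and 231. Its log2 ratio was -0.49 (-0.57 to -0.41), just short of the fold. It becomes -0.51 when each cell has equal weight and -0.37 under the median of ratios. Cluster 5, with 119 cells in 5XFAD and 396 in WT, was the highest for Atf4 in both libraries. The other alternatives, which include leaving out cluster 5, lay between these 2 values. Ddit3, the CHOP factor downstream of ATF4, was at 100 in 5XFAD and 114 in WT, a log2 ratio of -0.19 (-0.30 to -0.08). The second annotated row of Ddit3 held 0 UMIs. The PERK gene Eif2ak3 was at 214 and 222, a log2 ratio of -0.05 (-0.13 to 0.03). The ATF6 gene was at 36.7 and 46.6, a log2 ratio of -0.35 (-0.53 to -0.17). The IRE1 gene Ern1, which acts on Xbp1 RNA, was close to the bottom of the range at 3.31 and 3.16, with 41 and 40 UMIs. Xbp1 and Atf4 therefore differed in opposite directions between the libraries.

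None of the 6 measured ER-associated degradation genes was past the fold. Their ratios were below 0 in 4, with a median of -0.14, near all measured genes in this class (61.9% below 0, median -0.12). Herpud1, an adaptor of the retrotranslocation complex, was at 142 CPM in 5XFAD and 157 in WT, a log2 ratio of -0.14 (-0.24 to -0.05). Sel1l and Syvn1, which form the ubiquitin ligase complex that Herpud1 serves, lay at -0.14 and -0.28, and Edem1, which selects misfolded glycoproteins, at -0.29. The channel-like proteins Derl1 and Derl2 lay on the other side at 0.06 and 0.27.

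The oligosaccharyltransferase genes held the widest difference in the list. Ost4, its smallest subunit (chr5:30905885-30907788, coding sequence of 111 bases), was at 219 CPM in 5XFAD and 86.3 in WT, a log2 ratio of 1.35 (1.24 to 1.45). A UMI of Ost4 was seen in 1575 of 2364 cells in 5XFAD and 874 of 2538 in WT. After thinning the shares were 47.7% (45.7 to 49.8) and 23.0% (21.4 to 24.7), so more cells carried it at equal depth. Ost4 was found in every cluster, and no cluster served as background for it. Dad1, another small subunit (chr14:54235479-54254104), was at 507 in 5XFAD and 327 in WT, a log2 ratio of 0.63 (0.57 to 0.69). The catalytic subunits were level: Stt3a had a log2 ratio of -0.08 (-0.25 to 0.10) and Stt3b one of -0.06 (-0.13 to 0.02), which becomes 0.07 under the median of ratios. Rpn1, Ddost and Rpn2 were at 0.36, 0.21 and 0.00. The 7 genes had a median of 0.21.

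In the Sec61 channel the gamma subunit stood apart from the pore subunit. Sec61g (chr11:16500530-16508484) was at 461 CPM in 5XFAD and 267 in WT, a log2 ratio of 0.79 (0.73 to 0.85), and 73.7% and 53.7% of thinned cells carried a UMI of it. Sec61b, the beta subunit, was at 204 and 177, a log2 ratio of 0.20 (0.12 to 0.29). Sec61a1, which encodes the pore itself, was at 49.0 and 53.6, a log2 ratio of -0.13 (-0.29 to 0.03). The 4 genes of the translocon-associated protein complex, which helps some chains into the channel, were all above 0. Ssr2 was past the fold at 52.9 and 35.5, a log2 ratio of 0.57 (0.40 to 0.75), and Ssr1, Ssr4 and Ssr3 lay at 0.26, 0.21 and 0.21.

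Of a wider set of 98 genes of the same pathway, 93 were measured in clusters 0 to 5, 10 past the fold higher and 8 lower (background 6.95% and 19.8%). Their median was 0.00, against -0.12 for all measured genes. Among the higher were Tmem258, an oligosaccharyltransferase subunit, at 160 CPM in 5XFAD and 91.0 in WT, a log2 ratio of 0.81 (0.71 to 0.92), and Dpm3, which anchors the mannose donor enzyme, at 112 and 67.9, a log2 ratio of 0.72 (0.60 to 0.85). Fkbp2, an ER proline isomerase, was at 69.9 and 42.5, a log2 ratio of 0.72 (0.56 to 0.88), and Selenok, an ER selenoprotein, at 414 and 280, one of 0.56 (0.50 to 0.63). The lower side held Ppp1r15a, the phosphatase subunit that reverses the PERK block on translation, at 119 CPM in 5XFAD and 199 in WT, a log2 ratio of -0.74 (-0.83 to -0.65). It also held the ER DnaJ gene Dnajc1 at 20.3 and 34.0, a log2 ratio of -0.75 (-0.98 to -0.52), and the degradation lectin Os9 at 29.1 and 45.1, one of -0.63 (-0.83 to -0.44). Uggt1, the folding sensor that returns glycoproteins to the lectin chaperones, was at 23.8 and 34.6, a log2 ratio of -0.54 (-0.76 to -0.32).

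Within the B cell-like class the chaperone genes differed most in cluster 5, which is led by heat shock genes and held 119 cells in 5XFAD and 396 in WT. There 15 of 39 measured genes were past the fold higher (38.5%, against 13.7% of 4876 measured genes) and 0 lower (against 21.9%), with a median of 0.31. Hspa5 stood at 1179 CPM in 5XFAD and 812 in WT, a log2 ratio of 0.54 (0.41 to 0.67), the reverse of its direction in clusters 0 to 4. Hsp90b1 was at 498 and 323, a log2 ratio of 0.62 (0.42 to 0.83). Manf was at 286 and 133, a log2 ratio of 1.11 (0.81 to 1.40). These 3 bind or belong to the BiP and GRP94 chaperone systems, and the isomerases Pdia6, Pdia4 and Pdia3 followed at 0.85, 0.83 and 0.71. Xbp1 was at 127 and 63.2, a log2 ratio of 1.01 (0.57 to 1.44). Ost4, Ddost, Sec61g, Ssr2, Stt3b, Dad1, Derl1 and Sdf2l1 made up the rest, at 1.06, 0.92, 0.81, 0.79, 0.67, 0.60, 0.59 and 0.62, and of the 15 only the interval of Sdf2l1 (-0.16 to 1.38) includes 0. The clusters were built from the same genes, and the uneven number of cells moves with this result; its part was not tested. In clusters 0, 1, 2, 3 and 4 the medians were 0.19, -0.04, -0.00, 0.12 and 0.05.

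Clusters 6 and 7, which share B cell markers with clusters 0 to 5, showed some of the same leading genes. Ost4, Sec61g, Dad1 and Ssr2 were past the fold higher in both. Manf, at 0.48 in cluster 6 and 0.35 in cluster 7, and Xbp1 were past it in neither. Sdf2l1 was past it in cluster 7 but not in cluster 6, at 0.28. In cluster 6, 7 of 40 measured genes were past the fold higher (17.5%, against 12.4% of all measured genes) and 1 lower (against 15.4%). Ost4 was at 200 CPM in 5XFAD and 87.9 in WT, a log2 ratio of 1.18 (0.77 to 1.62), and Sec61g at 456 and 243, one of 0.91 (0.65 to 1.17). Ssr2, Pdia6 and Dad1 followed at 0.996 (0.29 to 1.75), 0.62 (0.29 to 0.95) and 0.57 (0.35 to 0.79). The intervals of Creld2, at 0.69, and Derl2, at 0.52, include 0. Atf6 was the lower gene at -0.61 (-1.20 to -0.02). Mzb1, for which this cluster was the highest in both libraries, was at 494 and 617, a log2 ratio of -0.32 (-0.51 to -0.13), Xbp1 was at 0.35 (-0.03 to 0.74), and Hsp90b1 and Calr lay at 0.03 and -0.01.

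In cluster 7, 7 of 36 measured genes were past the fold higher (19.4%, against 11.3%) and 3 lower (against 21.6%). Ost4 was at 216 and 96.3 CPM, a log2 ratio of 1.17 (0.74 to 1.61), Sec61g at 465 and 257, one of 0.85 (0.58 to 1.13), and Dad1 at 659 and 430, one of 0.61 (0.40 to 0.83). The lower genes were led by the PERK gene Eif2ak3 at 102 in 5XFAD and 164 in WT, a log2 ratio of -0.68 (-1.12 to -0.24). Sdf2l1 was at 0.84 (0.03 to 1.70). Ssr3, Ssr2 and Derl2 at 0.61, 0.60 and 0.57, and Derl1 and Atf6 at -0.52 and -0.51, all had intervals that include 0. Hspa5 was at 1454 and 1731, a log2 ratio of -0.25, and Xbp1 was level at -0.01.

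**Figure D2:**
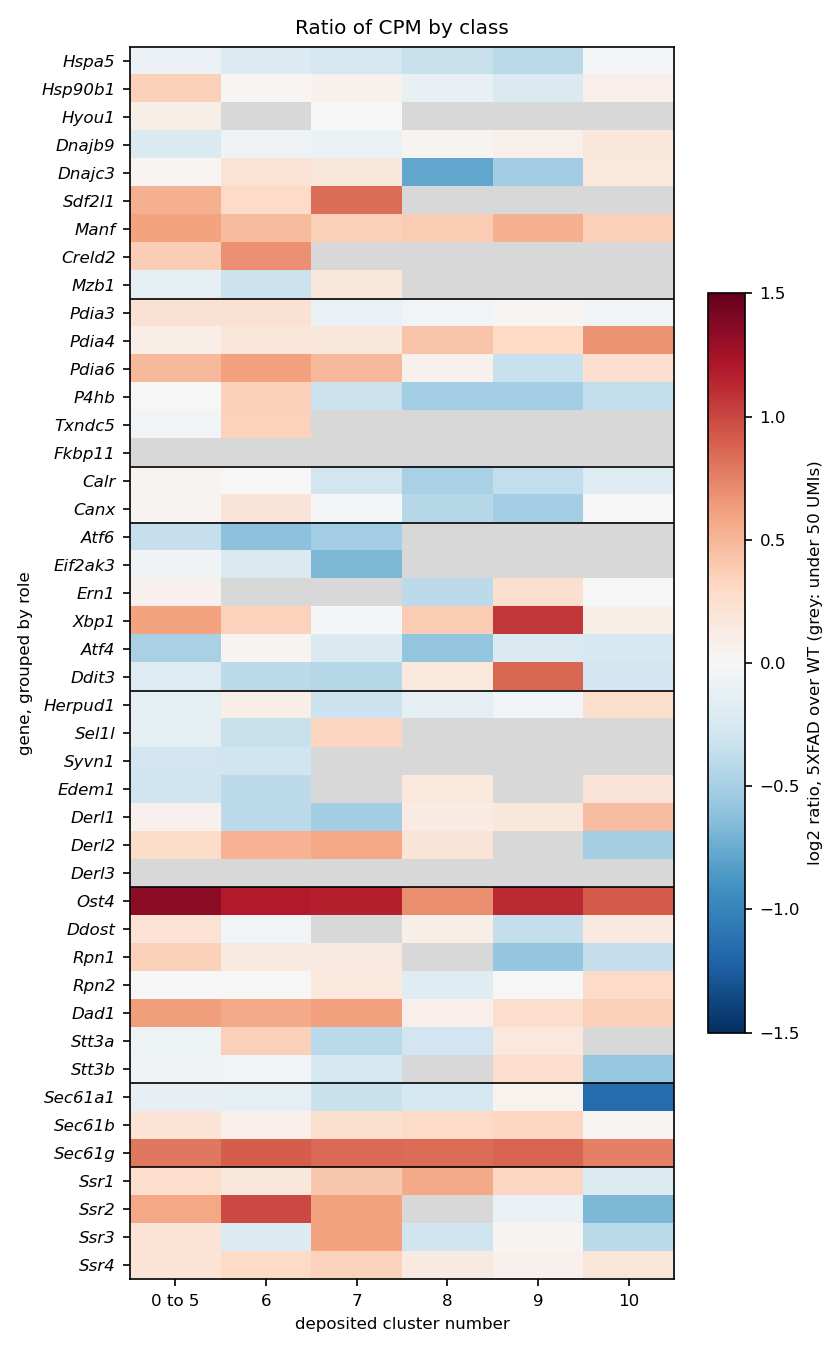
Log2 ratio of CPM, 5XFAD over WT, for each gene (rows, black lines between roles) in the 6 classes (columns), red for higher and blue for lower in 5XFAD, with grey for genes under 50 UMIs. The rows of Ost4 and Sec61g are red in all 6 classes, and Calr, Canx, Hspa5 and Dnajc3 are blue in clusters 8 and 9.

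In clusters 8, 9 and 10, Ost4 and Sec61g were again past the fold higher in 5XFAD. In cluster 8, the regulatory T cell-like one, 3 of 30 measured genes were past the fold higher (10.0%, against 10.6%) and 3 lower (against 14.2%), close to the background in both directions. Sec61g was at 477 CPM in 5XFAD and 267 in WT, a log2 ratio of 0.84 (0.55 to 1.14), and Ost4 at 186 and 115, one of 0.70 (0.24 to 1.17). Ssr1 was at 0.56 (-0.14 to 1.29). Dnajc3, a BiP co-chaperone that also inhibits PERK, was at 61.4 and 106, a log2 ratio of -0.78 (-1.42 to -0.16), and Atf4 at 147 and 220, one of -0.59 (-1.0 to -0.18). P4hb was at -0.51 (-1.32 to 0.27). Calr was just inside the fold at 433 and 609, a log2 ratio of -0.49 (-0.73 to -0.25). Hspa5 was short of it at 1236 and 1564, a log2 ratio of -0.34 (-0.48 to -0.20).

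In cluster 9, the ILC2-like one, 5 of 31 measured genes were past the fold higher (16.1%, against 9.95%) and 4 lower (12.9%, against 13.3%). Xbp1 was at 123 CPM in 5XFAD and 58.9 in WT, a log2 ratio of 1.06 (0.51 to 1.64), with 92 and 40 UMIs behind it. Ost4 was at 211 and 97.1, a log2 ratio of 1.12 (0.70 to 1.56), and Sec61g at 424 and 231, one of 0.88 (0.60 to 1.16). Manf was at 0.54 (0.16 to 0.92), and Ddit3, with 38 and 19 UMIs, at 0.86 (0.03 to 1.74). The 4 lower genes were Dnajc3 at 140 and 202, a log2 ratio of -0.52 (-0.90 to -0.14), Canx at 136 and 194, one of -0.51 (-0.90 to -0.13), P4hb at -0.51 (-1.08 to 0.06) and Rpn1 at -0.58 (-1.39 to 0.21). Hspa5 stood at 1425 and 1886, a log2 ratio of -0.40 (-0.52 to -0.29), and Calr at 401 and 518, one of -0.37 (-0.59 to -0.14). Xbp1 and Hspa5 thus differed in opposite directions in this cluster.

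In cluster 10, the T cell-like one, 3 of 32 measured genes were past the fold higher (9.38%, against 9.68%) and 3 lower (against 15.4%). Sec61a1 was at 33.9 CPM in 5XFAD and 75.2 in WT, a log2 ratio of -1.15 (-1.93 to -0.41), with 24 and 46 UMIs. In the same cluster Sec61g was at 473 and 279, a log2 ratio of 0.76 (0.49 to 1.03), so the genes of the pore and gamma subunits differed in opposite directions. Ost4 was at 170 and 89.9, a log2 ratio of 0.92 (0.44 to 1.40). Pdia4 at 0.67, Ssr2 at -0.67 and Stt3b at -0.57 had intervals that include 0. Hspa5 was level at -0.02. The summed level of the 5 B cell markers in clusters 8, 9 and 10 was 35.3 to 54.9 CPM in 5XFAD and 72.1 to 178 in WT, with Mzb1 at 0 to 1.71 and 2.94 to 17.98, and 1 of the 5 markers was at 0 in cluster 8 of 5XFAD. The part of this difference in the results of these clusters was not tested.

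Over the single clusters, Sec61g and Ost4 were higher in 5XFAD in each cluster where they were measured, as was Creld2 in its 5 (0.05 to 0.69). Sec61g was higher in 5XFAD in 17 of 17 clusters and past the fold in each, with log2 ratios from 0.53 to 1.15. Ost4 was higher in 16 of 16 clusters and past the fold in 15, from 0.44 to 1.40. Among 3018 genes measured in at least 10 clusters, 6.30% were higher in all of theirs and 0.563%, or 17 genes, were past the fold in all. Of the 34 genes of the set at that minimum 2 were higher in all of theirs and 0 lower in all, where 8.45% of genes were, so the share higher was near the background. Manf, Dad1 and Ssr4 were higher in 16 of 17 clusters, and Xbp1 and Sec61b in 15 of 17. Xbp1 was lower in cluster 15, at 157 and 276 CPM. Atf4 was lower in 15 of 17 clusters, Canx in 14, Hspa5 and Calr in 13, and Atf6 in 9 of the 10 where it was measured. In single clusters 42.9% to 62.3% of all measured genes were below 0. The share of all genes higher or lower in as many clusters as these was not computed. All clusters come from the same 2 libraries, so a difference between the libraries as wholes appears in each of them.

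The 3 sensors of the unfolded protein response had different cell distributions, alike in both libraries. Ern1 was near the bottom of the range in clusters 0 to 5, from 0 to 5.82 CPM in 5XFAD and from 1.25 to 4.98 in WT. In the ILC2-like cluster 9 it was at 342 in 5XFAD (95% Poisson interval 302 to 387) and 290 in WT (251 to 333). In the NK or ILC1-like cluster 12 it was at 283 (241 to 331) and 382 (329 to 442), and in the ILC3-like cluster 16 at 400 (305 to 515) and 373 (268 to 506). Clusters 9, 12 and 16 thus held the most Ern1 in both libraries. It was at 61.4 and 80.6 in cluster 8, 133 and 132 in cluster 10, 143 and 129 in cluster 13, and 43.8 and 49.3 in cluster 11. In cluster 14, where T cell markers summed to 1959 and 1837 CPM, it had 1 UMI and 0. After thinning to 3000 UMIs, 61.2% and 53.8% of cells in cluster 9 carried an Ern1 UMI, against 0.859% and 0.856% in clusters 0 to 5, where the median depths were 5086.5 and 4783.5 UMIs against 5559 and 6268.5. The unthinned shares were 70.5% and 69.4% in cluster 9 and 1.48% and 1.54% in clusters 0 to 5.

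Eif2ak3 ran the other way. It was at 161 to 246 CPM in 5XFAD and 119 to 334 in WT over clusters 0 to 5, and at 6.69 (2.17 to 15.6) and 2.94 (0.356 to 10.6) in cluster 9. Thinned shares of cells with a UMI were 43.5% and 42.2% in clusters 0 to 5 and 3.1% and 0.943% in cluster 9, and the unthinned ones were 59.3% and 57.1%, and 3.88% and 1.85%. Atf6 was found in both lineages, highest in the gamma delta T cell-like cluster 13 at 104 and 125. Cluster 9, rich in the IRE1 gene, was thus low in the PERK gene. Mzb1 followed the B lineage, at 112 to 286 and 147 to 294 over clusters 0 to 5, and at 0 to 6.04 and 2.52 to 17.98 over clusters 8 to 14. Its thinned share was 39.0% and 40.7% in clusters 0 to 5 and 69.5% and 71.9% in cluster 6, against 0% and 0.943% in cluster 9, where 0 of 129 cells in 5XFAD allows up to 2.82% of cells with a UMI at this depth, not of cells expressing the gene. Clusters were made from all genes, so these levels describe them and test nothing.

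**Figure D3:**
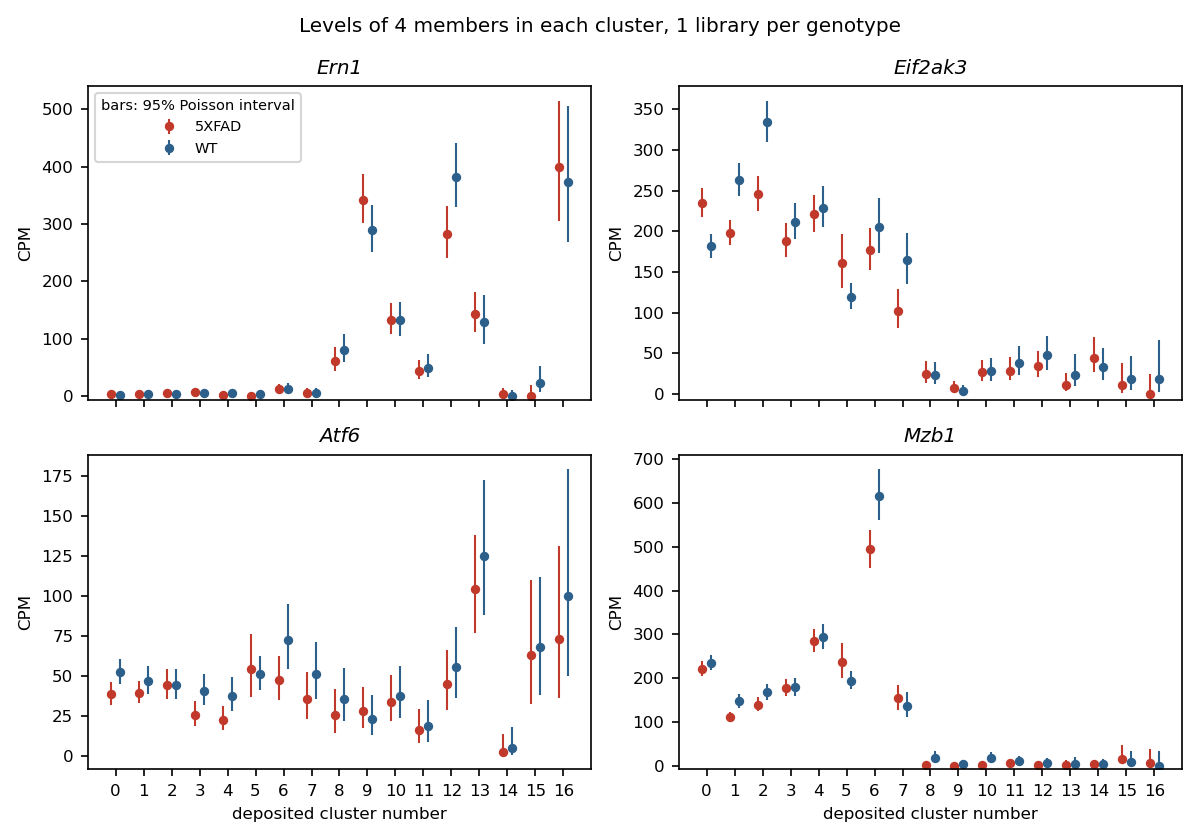
Level of Ern1, Eif2ak3, Atf6 and Mzb1 in clusters 0 to 16, in CPM with 95% Poisson bars, 1 point per library (red 5XFAD, blue WT). Ern1 is highest in clusters 9, 12 and 16 in both libraries, where Eif2ak3 is below 50 CPM, and Eif2ak3 and Mzb1 are highest in clusters 0 to 7.

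In the 16 clusters with at least 20 cells in each library, 24 of the 44 genes (54.5%) had the same highest cluster in both, as did 34.7% of 10922 genes. For 10 of them (22.7%, against 9.35% of genes) that was cluster 15, with 32 cells in 5XFAD and 37 in WT: Hspa5, Hsp90b1, Sdf2l1, Creld2, Pdia3, Pdia6, P4hb, Herpud1, Sec61b and Ssr4. Hspa5 stood at 4830 CPM in 5XFAD (4523 to 5152) and 4486 in WT (4211 to 4774) there. Single cells carried much of it: the top cell held 184 Hspa5 UMIs in 5XFAD and 181 in WT. All 44 genes together had 2317 and 2594 UMIs in this cluster. The Poisson intervals do not cover such spread between cells. Cluster 15 held markers of macrophages (summed over 5 genes, 4830 and 7668), stromal cells (over 4 genes, 1432 and 534) and epithelium (over 4 genes, 582 and 312), so it mixes cell types. Cluster 6 was the highest for Mzb1, Pdia4 and Derl3, the last with 5 and 10 UMIs, and cluster 12 for Dnajb9, Sel1l and Ssr1.

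Cells rich in immunoglobulin UMIs were rare. Only 1 cell in 5XFAD and 3 in WT had over 10% of their UMIs from immunoglobulin genes. The 44 genes made up 1.96% of the UMIs of that 5XFAD cell and 1.10% of those of the 3 WT cells, against 0.717% and 0.648% in all other cells. Without these 4 cells the median log2 ratio in cluster 6, which held 3 of them, goes from 0.12 to 0.05.

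Transcript length moved with the ratios. In clusters 0 to 5 the Spearman correlation of log2 ratio with transcript length was -0.34 over the 42 measured genes and -0.44 over 9078 genes, across genes that share the same libraries. The 6 genes under 1000 bases, among them Ost4 and Sec61g, had a median of 0.21, and all genes of that length had 0.22. The 5 genes of 1000 to 2000 bases had a median of 0.37 against 0.09, the 20 of 2000 to 4000 bases 0.15 against -0.14, and the 11 longer ones -0.05 against -0.33. In the shortest class 21.3% of all genes were past the fold higher, in the longest 1.74%. Ost4, at 860 bases, and Sec61g, at 735, lay above the median of their length class, while Mzb1 and Ddit3, also under 1000 bases, lay below it at -0.15 and -0.19. Dad1, Xbp1 and Manf, at 2184.5, 2129 and 2247 bases, were past the fold in a length class where 4.72% of genes were. Their longest coding sequences are shorter, at 339, 801 and 537 bases. With coding length in place of transcript length, the correlation over the 42 genes was -0.43. Coding length was not correlated over all genes. The part of length in these differences was not tested.

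**Figure D4:**
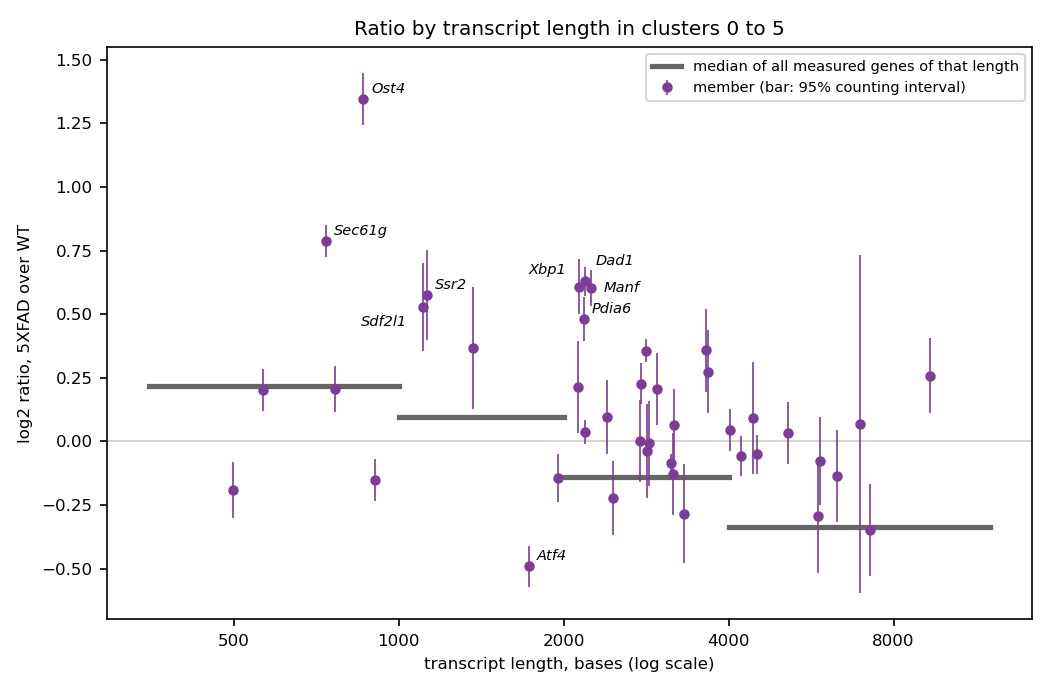
Log2 ratio of 5XFAD over WT in clusters 0 to 5 against transcript length in bases (log axis) for the 42 measured genes, with 95% counting intervals, and grey bars at the median of all measured genes in 4 length classes. The grey medians step down from 0.22 to -0.33, and Ost4, Sec61g, Dad1, Xbp1 and Manf lie above the bar of their class while Atf4 lies below it.

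In clusters 0 to 5 pooled, 9 of the 10 genes with ERSE or ERSE-II were measured, none was past the fold in either direction, and their median was 0.04 (-0.28 to 0.48 from lowest to highest). Of the 26 measured genes whose promoter held neither, 5 were past it higher and the median was 0.15. Manf and Ssr2, also past it higher, had no promoter in the table. In cluster 5 taken singly, the 15 genes past the fold included Hspa5, Hsp90b1 and Pdia6, which have a site, at 0.54, 0.62 and 0.85. No other gene with a site was past it there. The rest of the 15 held neither element, among them Ost4, Xbp1, Pdia4 and Ddost, or had no promoter in the table. In cluster 9 the 7 measured genes with a site ranged from -0.52 to -0.04 with a median of -0.37, and the 20 without had a median of 0.20. In cluster 8 the medians were -0.34 and 0.11, in cluster 7 they were -0.03 and 0.16, in cluster 6 0.10 and 0.17, and in cluster 10 0.08 and 0.02. The genes with a site thus had their lowest medians in the regulatory T cell-like and ILC2-like clusters. These medians are a description of chosen genes. The measured genes under 1000 bases with a promoter in the table were all without a site, and the part of length here was not tested.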

How the data were processed

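Per the labels' protocols, live CD45+ colon cells were sorted, and cells of 3 mice per genotype were pooled, made into 10x Chromium 3′ v3.1 libraries and sequenced on a NovaSeq. Cell Ranger 6.0.1 and the mm10 build are named in the submitters' processing notes. Filters on cells and the clustering method are among the steps not given in the sources used here. As tables the authors deposited an expression table of natural log values, ln(1 + UMIs per 10000), a second natural log table (SCT, 14128 genes) and metadata. The deposited metadata give UMI counts and detected genes per cell, mitochondrial percent, SCT totals (a score) and cluster numbers. In the metadata 1 library is called WT and the other AD; the latter was read as 5XFAD.

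The log was undone with each cell's deposited total to give whole UMIs: 100% of 11758401 values were whole within 1e-06 and sums matched in 6886 of 6886 cells. UMIs were summed per class and library and scaled to UMIs per 1000000 (CPM). Ratios have exact conditional binomial 95% intervals, levels Poisson ones and shares Clopper-Pearson ones, all for counting error only. Members past a log2 ratio of 0.5 with at least 50 UMIs are named in each of 6 classes, as are Hspa5, Hsp90b1, Calr, Xbp1, Mzb1, Ost4, Ddit3 and Atf4 in clusters 0 to 5, and the 4 highest and 4 lowest other pathway genes by interval bound; members named for cluster 5 alone, and other values, were chosen after they were seen. The members, classes and lists were chosen with earlier results of these data known. Clusters were named from marker lists and their leading genes. No doublet caller was run. Lengths are medians of principal transcripts in GENCODE M21. Counts were also simulated with Poisson error only, the error that the intervals assume. Their coverage therefore says nothing of spread between cells or mice. In clusters 0 to 5 (9681 genes), the true ratio lay within 95.8% of intervals. There 99% of genes made 2-fold different were past the fold, as were 2.35% of unchanged genes. In the smaller clusters 6 to 10, 8.18% to 8.81% of unchanged genes were past it. Python 3.11.15, numpy 2.4.6, scipy 1.17.1 and pandas 2.3.3 were used.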

Additional observations from a re-analysis of the deposited data

Results flagged for a closer look

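Ssr2, a subunit of the translocon-associated protein complex, was past the fold in opposite directions in different classes. Its log2 ratio of 5XFAD over WT was 0.57 in clusters 0 to 5, 0.996 in cluster 6 and 0.60 in cluster 7, all B cell marker-bearing, and -0.67 in the T cell-like cluster 10, where 24 UMIs in 5XFAD and 33 in WT lay behind it. The difference between the classes was not tested, and the intervals in clusters 7 and 10 include 0. Over the 12 single clusters where Ssr2 was measured, it was higher in 5XFAD in 10 and lower in 2. The 10 were thus not only clusters with B cell markers. Ssr2 was past the fold higher in 8 single clusters and lower in 1, which was cluster 10.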

How the results depend on the processing

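Alternatives tried were another scaling (median of ratios), equal weight per cell, the SCT table, leaving out the top cell, immunoglobulin-rich cells, cells of 2500 genes or more, or cluster 5, thinning to 3000 UMIs, other UMI minimums (20 and 200) and a larger fold. Leaving out cluster 5 for single genes was chosen after seeing the data. In clusters 0 to 5 the median ratio stayed between 0.02 and 0.19, and 6 to 8 genes were past the fold higher, but 1 at a fold of 1 on the log2 scale. With each cell weighted equally 1 gene, Atf4, was past it lower. In clusters 8 and 9 the median turned to -0.05 and -0.03 with the SCT table, to -0.02 in both when thinned, and in cluster 8 to -0.02 at a minimum of 20 UMIs; the cause was not tested. Of 1519 single-gene values 1481 stayed within their counting interval and 38 moved out. Thinning took Creld2 in cluster 6 to 1.85. In the small classes depth limits most single genes. No paired analysis was possible because each genotype is 1 pooled library.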
